A study of Homo sapiens with 2 samples.

Results

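The 10 genes described here were the 5 NF-kB subunit genes NFKB1, NFKB2, RELA, RELB and REL and 5 genes that NF-kB induces as feedback or activation targets, NFKBIA, TNFAIP3, CD83, BIRC3 and IER3. They were chosen by name, and every probe set that the platform annotation assigned to 1 of them alone was taken. This gave 18 probe sets for 9 of the 10 genes, out of 41097 probe sets for 19775 genes in all. BIRC3 had no probe set under that annotation. Expression was measured on Affymetrix U133 Plus 2.0 arrays in HMC1, an established human cell line derived from mast cell leukaemia. The cells had been stained for the surface receptor CD2 and sorted by flow cytometry, and the labels name a CD2-positive (CD2+) and a CD2-negative (CD2-) subclone, with no treatment given for either. RNA of each subclone was hybridised to 1 array, so there are no replicates, no value below has an error between cultures, and no test of the conditions could be made. The sources used here do not say whether a subclone grew from a single cell.

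NF-kB transcription factors are dimers of 5 related proteins. RELA, RELB and REL carry activation domains, whereas NFKB1 and NFKB2 encode precursors that are processed to DNA-binding subunits without one. In resting cells inhibitory IkB proteins hold the dimers in the cytoplasm, and an IkB kinase complex marks these inhibitors for destruction when receptors for tumour necrosis factor, interleukin-1 family cytokines or bacterial products are engaged. The dimers then enter the nucleus and bind kappaB sites in the promoters of their targets, among which are genes that shut the pathway down again. In mast cells the pathway is known to act downstream of the IgE receptor and the interleukin-33 receptor and to drive cytokine genes.

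The promoters of 5 members, 2 feedback inhibitors, the activation marker CD83 and 2 subunits, are shown because kappaB sites are the known route by which the pathway acts on its own feedback genes. Each sequence is the 250 bases before an annotated RefSeq transcription start (build GRCh38.p14), written along the strand of the gene, with every stretch that matches the 10-base kappaB consensus on either strand in capitals.
NFKBIA, chr14:35404750-35404999, minus strand: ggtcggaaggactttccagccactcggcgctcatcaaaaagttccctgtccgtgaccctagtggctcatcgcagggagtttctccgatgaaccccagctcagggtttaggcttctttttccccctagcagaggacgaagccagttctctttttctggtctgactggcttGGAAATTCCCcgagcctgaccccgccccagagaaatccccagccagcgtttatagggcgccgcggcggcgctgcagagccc
TNFAIP3, chr6:137867009-137867258, plus strand: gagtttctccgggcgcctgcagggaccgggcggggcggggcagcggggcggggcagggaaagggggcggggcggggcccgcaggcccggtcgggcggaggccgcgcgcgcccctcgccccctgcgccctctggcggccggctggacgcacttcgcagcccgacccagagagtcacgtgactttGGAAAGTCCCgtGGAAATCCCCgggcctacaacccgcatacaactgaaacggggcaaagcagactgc
CD83, chr6:14117522-14117771, plus strand: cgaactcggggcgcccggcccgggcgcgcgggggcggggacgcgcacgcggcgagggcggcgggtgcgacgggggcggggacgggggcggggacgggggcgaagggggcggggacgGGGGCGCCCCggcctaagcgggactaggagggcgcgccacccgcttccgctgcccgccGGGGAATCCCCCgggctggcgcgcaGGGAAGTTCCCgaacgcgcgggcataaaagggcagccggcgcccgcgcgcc
NFKB1, chr4:102501109-102501358, plus strand: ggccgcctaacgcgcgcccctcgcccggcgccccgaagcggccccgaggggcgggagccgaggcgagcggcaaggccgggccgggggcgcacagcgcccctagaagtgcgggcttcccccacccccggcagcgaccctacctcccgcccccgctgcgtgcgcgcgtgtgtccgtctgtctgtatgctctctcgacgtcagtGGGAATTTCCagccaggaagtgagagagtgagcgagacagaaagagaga
REL, chr2:60881324-60881573, plus strand: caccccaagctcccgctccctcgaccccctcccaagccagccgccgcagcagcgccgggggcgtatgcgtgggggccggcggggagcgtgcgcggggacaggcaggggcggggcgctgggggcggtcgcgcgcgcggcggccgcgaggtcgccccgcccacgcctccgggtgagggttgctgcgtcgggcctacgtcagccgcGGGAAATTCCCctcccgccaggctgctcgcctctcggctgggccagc

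NFKBIA had 1 match, on the opposite strand, at 81 to 72 bases before the start, which read in the other direction is GGGAATTTCC. The same 10 bases stood in NFKB1 at 49 to 40 bases and in REL, on the opposite strand, at 46 to 37 bases before the start. TNFAIP3 had 2 separate matches, GGGACTTTCC and GGGGATTTCC, both on the opposite strand between 67 and 46 bases before the start. CD83 had 3 separate places in this window, which is 83.2% G and C, and some of these matches overlap because the motif can be read on both strands there. Another annotated CD83 start, for which the window begins at base 14117006, had no match. The second NFKB1 window, which begins at base 102501684, had none either. Matches were also found for NFKB2, in 2 of its 3 windows, and for BIRC3, whereas neither of the 2 windows of RELA held these letters. In all, 8 genes of the set had a window in the RefSeq promoter table, RELB and IER3 being the others, and 7 of these 8 held a match in at least 1 window. The same was true of 11.8% of the 27305 genes in the table. Counted by window, 8 of the 13 member windows held a match (61.5%). Of all 35116 windows 9.96% did, and 16.9% of the 7287 windows with at least 70% G and C. A high share among the members could be foreseen, because they were chosen as NF-kB subunits and known targets. A match is a string of letters and not a measured binding site, and no binding was measured in this study.

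Intensities are on a linear scale and were rounded to whole numbers by the time of deposit. All differences are log2 of the CD2-positive minus log2 of the CD2-negative intensity. A gene takes its value from whichever of its probe sets was brightest on average, and it was compared with other genes where the higher array reached an intensity of 64 (log2 of 6), which 3564 genes did. The labels held for the sorted receptor, since CD2 read 219 on the CD2-positive array and 13 on the CD2-negative one. Both samples carried mast cell genes, with 10 of 11 measured markers above the floor and summed intensities of 16479 and 11355. KIT, which encodes the stem cell factor receptor, read 1373 and 1328, whereas CPA3, a mast cell protease gene, read 1220 and 207. None of the 31 measured markers of T and NK cells, B cells, monocytes and macrophages, or fibroblasts, endothelium and epithelium reached the floor on either array. The 15 probe sets examined for Bacillus transcripts, which stand for background, read 1 to 4. Hybridisation controls added to the samples read lower on the CD2-positive array in all 18 probe sets, with a median difference of -0.18. Centring on them moves every difference below up by 0.18, and the median of all compared genes from -0.05 to 0.14. Within the arrays, probe sets of the same gene differed from each other with a standard deviation of 0.13 on the log2 scale per probe set, over 937 genes, which covers probe behaviour and no variation between cultures.

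All 5 subunit genes read lower in the CD2-positive sample, by 1.08-fold to 1.55-fold. All 5 reached an intensity of 32 (log2 of 5) on the higher array, and of the 6024 genes that did, 53.4% read lower. The differences for NFKB1, NFKB2 and RELA were small, and those for RELB and REL were larger. NFKB1 and RELA lay above the floor and NFKB2, RELB and REL below it. No subunit gene differed by 2-fold, and 2.08% of those 6024 genes did. Among bulk samples like these, a lower value from fewer expressing cells and one from less RNA per cell cannot be told apart.

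RELA encodes the main activating subunit of the canonical pathway. It read 121 on the CD2-positive array and 142 on the CD2-negative one with its brighter probe set, and 41 and 48 with the other. Both probe sets gave a log2 difference of -0.23. NFKB1, which encodes the precursor of RELA's usual partner, read 104 and 120 with its single probe set, a difference of -0.21. Of the 3564 compared genes, 892 had a lower difference than RELA and 991 a lower one than NFKB1, so both lay within the bulk of the distribution. Centred on the hybridisation controls, the 2 differences were -0.05 and -0.02, and both subunits were then nearly level.

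REL, which encodes c-Rel, a subunit prominent in lymphoid and myeloid cells, had 5 probe sets. Its brightest read 31 on the CD2-positive array and 48 on the CD2-negative one, the next 17 and 29, and another 16 and 25. Their log2 differences were -0.63, -0.77 and -0.64, so 3 separate probe sets gave much the same value. The other two read 3 and 4, and 2 and 2, no higher than the Bacillus controls, and carry no information. All intensities of REL lay below the floor of 64, where the background correction weighs more on a fold. Rounding alone would place the difference of its brightest probe set between -0.67 and -0.59. Centred on the hybridisation controls it was -0.45, and with 16 added to both intensities, which damps differences near background, it was likewise -0.45.

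RELB and NFKB2 encode the partners of the non-canonical pathway, which responds to CD40, lymphotoxin and related receptors. RELB read 41 on the CD2-positive array and 56 on the CD2-negative one, a difference of -0.45 from 1 probe set, and -0.27 when centred on the hybridisation controls. The probe sets of NFKB2 did not give a single value. The brightest read 38 and 41, a difference of -0.11, or 0.07 after centring on the hybridisation controls. The next read 14 and 23, a difference of -0.72, and the last read 2 on both arrays. The size of the NFKB2 difference thus depends on the probe set, and the direction of its brightest probe set depends on the centring. Its level on either array was below the floor.

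**Figure D1:**
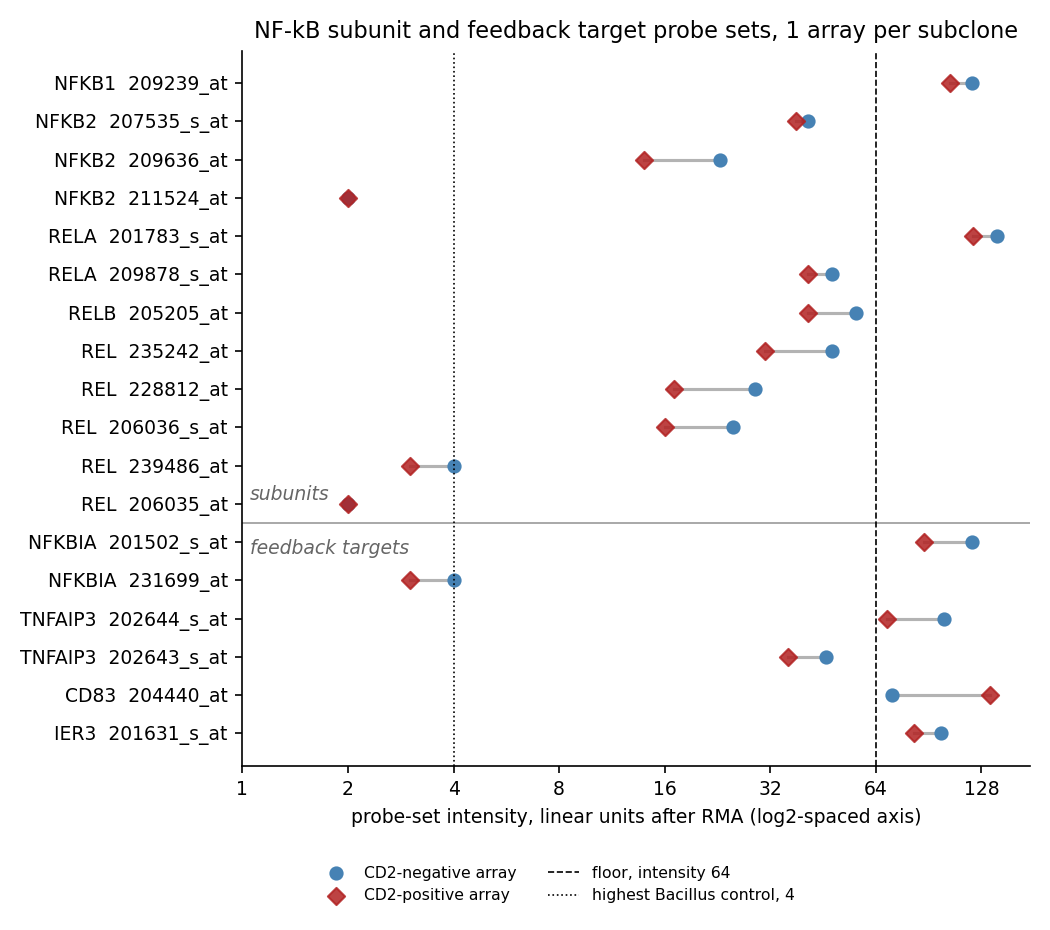
Intensity of each of the 18 probe sets (vertical axis, gene and probe set) on the CD2-positive array (red diamonds) and the CD2-negative array (blue circles), on a log2-spaced horizontal axis, with the floor of 64 dashed and the highest Bacillus control value of 4 dotted. The red diamond lies left of the blue circle in 15 probe sets, right of it in 1, the CD83 probe set at 135 against 71, and on it in 2.

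Of the 18 probe sets 15 read lower in the CD2-positive sample, 1 higher and 2 equal. Leaving out the 4 that read 4 or less on both arrays, 13 of 14 read lower, against 43.5% of the 21092 named probe sets above 4 on an array, many of which read equal. For all 13 the range allowed by rounding lay below 0. Several of these probe sets measure the same gene and are not separate observations.

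The feedback targets went in both directions. NFKBIA, TNFAIP3 and IER3 read lower in the CD2-positive sample, by 1.20-fold to 1.45-fold, and CD83 read 1.90-fold higher. All 4 measured targets were above the floor. Their median difference was -0.35 and their mean -0.08, because the value of CD83 is large and of opposite sign.

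NFKBIA encodes IkB-alpha, the inhibitor that is destroyed on activation and made anew by NF-kB itself. It read 88 on the CD2-positive array and 120 on the CD2-negative one, a difference of -0.45. A second probe set read 3 and 4, at background. TNFAIP3 encodes a ubiquitin-editing enzyme that takes the signal off the receptor complexes. It read 69 and 100, and its dimmer probe set 36 and 46, with differences of -0.54 and -0.35. Among the 3564 compared genes 292 had a lower difference than NFKBIA (8.19%) and 169 a lower one than TNFAIP3 (4.74%). Both kept a negative sign when centred on the hybridisation controls, at -0.27 and -0.35.

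IER3, an immediate early gene whose product affects cell survival, read 82 on the CD2-positive array and 98 on the CD2-negative one. Its difference of -0.26 was close to those of RELA and NFKB1, and 777 compared genes (21.8%) had a lower one. Centred on the hybridisation controls it was -0.07.

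CD83 was the only member that read higher. It encodes a surface protein of the immunoglobulin superfamily known as a marker of mature dendritic cells. Its single probe set read 135 on the CD2-positive array and 71 on the CD2-negative one, a log2 difference of 0.93 with a rounding range of 0.91 to 0.94. Among the 3564 compared genes 49 had a higher difference (1.37%). The value was just under the 2-fold rule as deposited and past it, at 1.11, when centred on the hybridisation controls, a setting under which 1.99% of the compared genes were at least 2-fold higher. The list of monocyte, macrophage and dendritic cell markers held 8 genes, and the 6 that were measured read at background on both arrays. Genes of these cells outside the list were not examined. CD14, CD163, CSF1R, MRC1, CLEC10A and CD1C read 2 or 3 in each sample, and the summed intensity of these 6 genes was 16 in both.

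**Figure D2:**
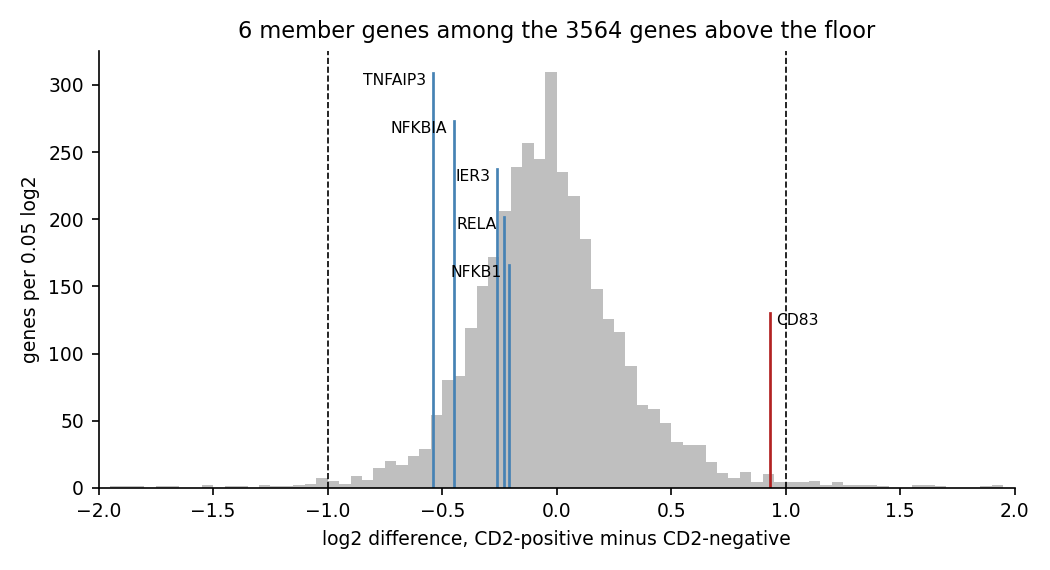
Histogram of the log2 differences (horizontal axis, CD2-positive minus CD2-negative, shown from -2 to 2; vertical axis, genes per bin) of the 3564 genes above the floor, with dashed lines at 2-fold and a line for each of the 6 members above the floor; the heights of these lines carry no value. TNFAIP3 (-0.54) and NFKBIA (-0.45) lie on the left flank, IER3, RELA and NFKB1 (-0.26 to -0.21) near the centre, and CD83 (0.93) in the right tail.

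The 6 members above the floor had a median difference of -0.24 and a mean of -0.13, against a median of -0.05 over all compared genes. None of the 6 differed by 2-fold, and 1.96% of all compared genes did. At 1.5-fold CD83 alone of the 6 passed, against 8.00% of all compared genes. Of the 6, 5 read lower in the CD2-positive sample, against 55.7% of all compared genes. With the floor lowered to an intensity of 32 (log2 of 5), all 9 measured members were included and 8 of 9 read lower, against 53.4% of 6024 genes. Their median was then -0.26, that of all genes -0.04. Centred on the hybridisation controls, 7 of the 9 read lower, against 30.3% of the same genes, NFKB2 and CD83 being above 0. The members' median above the floor of 64 was then -0.06 and their mean 0.06, which differ in sign. One array per subclone gives no measure of whether these shares exceed what cultures of 1 subclone would show.

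The differences were also set against those of neighbouring genes. For each member the median was taken over the nearest 20 genes above the floor on its chromosome, 10 on each side. These medians lay between -0.11 and 0.02 for the 9 members. CD83, on chromosome 6, was among neighbours with a median of -0.07 and a range from -0.47 to 0.65, so that its own value of 0.93 was above all 20. TNFAIP3, on another part of the same chromosome, read below all 20 of its neighbours with its brighter probe set. Their lowest value was -0.47, and its dimmer probe set, at -0.35, lay within their range. REL, on chromosome 2, was also below the lowest of its neighbours, -0.53, but its own intensities were below the floor that they reached. NFKBIA, on chromosome 14, lay within the range of its neighbours, from -0.50 to 0.58, as did the other members.

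**Figure D3:**
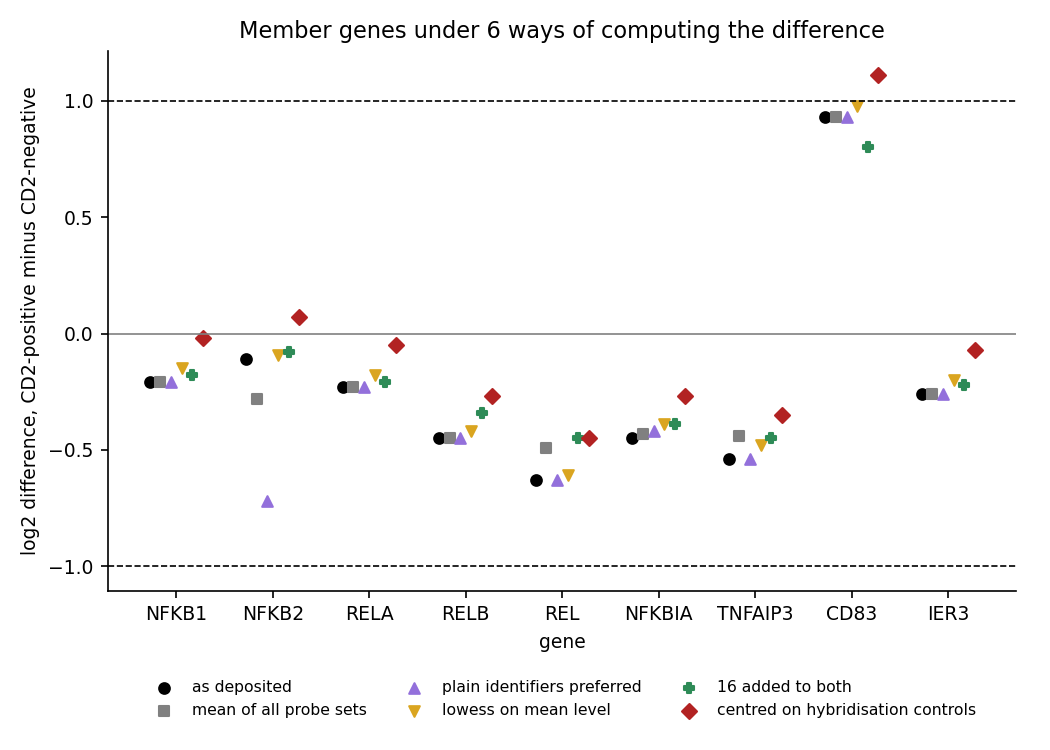
Log2 difference (vertical axis, CD2-positive minus CD2-negative) of each of the 9 measured member genes (horizontal axis) under 6 ways of computing it, with dashed lines at 2-fold. CD83 stays between 0.80 and 1.11 and TNFAIP3 between -0.54 and -0.35, whereas NFKB2 runs from -0.72 to 0.07.

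The rest of the pathway was examined with 7 lists, from receptors to other target genes, that hold 107 genes. Of these 96 had a probe set and 25 were above the floor. None of the 25 differed by 2-fold, 14 read lower and 11 higher, and their median was -0.09. When centred on the hybridisation controls 7 read lower and 18 higher, the median was 0.10, and TNFAIP8 alone was past 2-fold.

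At the receptors, 4 of 16 measured genes were above the floor, 2 read higher and 2 lower, and the median was 0.05. After centring on the hybridisation controls 3 read higher and 1 lower, with a median of 0.23. IL18R1, a chain of the interleukin-18 receptor, read 120 on the CD2-positive array and 82 on the CD2-negative one, a difference of 0.55. TNFRSF1A, the main receptor for tumour necrosis factor, read 71 and 84, a difference of -0.24. None of the 8 measured ligand genes reached the floor, and TNF read 6 on both arrays. TNF was chosen after its value was seen.

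Among adaptors and ubiquitin ligases 7 of 15 measured genes were above the floor, 3 higher and 4 lower, with a median of -0.07. After centring on the hybridisation controls 5 read higher and 2 lower, with a median of 0.12. RBCK1, a subunit of the linear ubiquitin chain assembly complex that stabilises receptor signalling, read 43 on the CD2-positive array and 78 on the CD2-negative one, a difference of -0.86. It lies on chromosome 20, and all 11 neighbours above the floor also read lower, with a median of -0.52. TRAF5, an adaptor of tumour necrosis factor receptors, read 64 and 51, a difference of 0.33, among neighbours on chromosome 1 with a median of -0.33. Only 1 of its 2 probe sets reached the floor, and with the mean of both the difference was 0.16.

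Of the kinases 4 of 11 were above the floor, 1 higher and 3 lower, with a median of -0.16, or 0.02 after centring on the hybridisation controls. IKBKG, the regulatory subunit of the IkB kinase complex, read 66 on the CD2-positive array and 86 on the CD2-negative one, a difference of -0.38. On chromosome X its neighbours had a median of -0.37. IKBKB, the catalytic subunit of the canonical pathway, read 67 and 53, a difference of 0.34.

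Negative regulators other than TNFAIP3 had 4 of 12 measured genes above the floor, 1 higher and 3 lower, with a median of -0.31. After centring on the hybridisation controls 2 read higher and 2 lower, and the median was -0.13. TNIP1, 1 of the 4, had a difference of -0.46 with its brightest probe set and about 0 with the mean of its 2. CYLD, a deubiquitinase that removes activating ubiquitin chains, read 60 on the CD2-positive array and 99 on the CD2-negative one, a difference of -0.72. Its other 6 probe sets read 2 to 7 on both arrays, and with the mean of all 7 the difference was -0.14. TAX1BP1, an adaptor protein of TNFAIP3, read 285 and 266, a difference of 0.10, with a value of -0.14 for its second probe set above the floor. The remaining IkB family and RAS-like inhibitor genes were all below the floor. NFKBIE, which encodes IkB-epsilon and was chosen after its value was seen, read 23 and 33, a difference of -0.52.

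As deposited, other target genes went in both directions. Of 28 measured genes 6 were above the floor, 4 higher and 2 lower in the CD2-positive sample, with a median of 0.11 and a mean of 0.25. After centring on the hybridisation controls all 6 read higher, with a median of 0.30 and a mean of 0.44. Over the 12 genes that reached an intensity of 32, 6 read higher and 6 lower, with a median of -0.04 and a mean of -0.07. After the same centring 8 of these read higher and 4 lower, with a median of 0.14. Among the 12, SOD2 alone was past 2-fold as deposited, at 14 and 32, a difference of -1.19. TNFAIP8, a regulator of apoptosis, read 154 and 82, a difference of 0.91, and its second probe set above the floor read 131 and 75, a difference of 0.80. A further one read 7 and 4, near background. IRF1, an interferon-responsive transcription factor gene, was the lowest at 59 and 66, a difference of -0.16 that became 0.02 when centred on the hybridisation controls. Its other probe set above the floor read 54 and 68, a difference of -0.33. Many cytokine and adhesion targets were at background in both samples. IL6 read 3, CXCL8 read 4 and PTGS2 read 2 on each array, and these 3 were chosen after their values were seen.

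**Figure D4:**
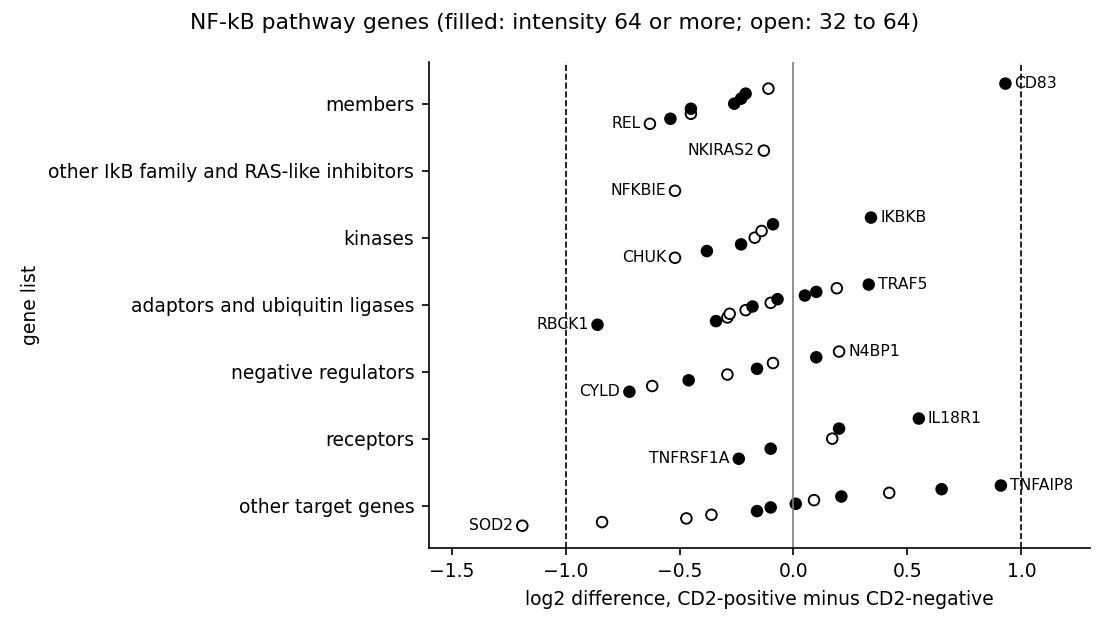
Log2 differences (horizontal axis, CD2-positive minus CD2-negative) of the 9 members and of the pathway genes whose higher array reached an intensity of 32, by list (vertical axis), with the genes at each end named; filled points reached 64 on the higher array and open points 32 to 64. CD83 (0.93) and TNFAIP8 (0.91) lie farthest right. The open point of SOD2 (-1.19) lies farthest left, and RBCK1 (-0.86) is the lowest filled point. The ligands are absent because none reached 32.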

How the data were processed

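RNA of 1 CD2-positive and 1 CD2-negative HMC1 subclone was hybridised to 1 array each. The authors deposited intensity values that, per the submitters' processing notes, came from RMA as run in Affymetrix Expression Console 1.1. RMA subtracts background, gives both arrays 1 distribution and summarises each probe set. Whole-number linear values were seen in the table, and the sources used here do not say how they were made from RMA's log2 output. No genome build is given for the array values. Of 54675 probe sets, 41097 carried 1 gene symbol and 1801 several, and 11777 were not named by the platform annotation. Only the first were used. Symbols were updated through RefSeq gene identifiers, which matched for 41043.

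From these values log2 differences, counts and medians were computed with Python 3.11.15, pandas 2.3.3, numpy 2.4.6 and statsmodels 0.14.6, and the code was tested on simulated data. With 1 array per group no p-value was computed. Precision is limited by having 1 array per group. Genes were compared at a floor of log2 6 and called at 2-fold. The members, the lists and the choices were made with earlier results of these data known. Named genes were all members, CD2, 4 mast cell genes, and, from each wider list, genes past 2-fold and those at either end above the floor. Other genes named, apart from the 6 measured of 8 listed monocyte, macrophage and dendritic cell markers, were chosen after their values were seen. Of the mast cell genes, HDC read 1715 and 1219 and TPSAB1 4806 and 3142. Alternatives were other floors (log2 5, 7 or none), 1.5-fold and 3-fold rules, the mean of all probe sets, a preference for identifiers without _s, _x or _a, centring on all probe sets or on the hybridisation controls, a lowess curve with a span of 0.3, 16 added to both intensities, and subtraction of the neighbours' median.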

Additional observations from a re-analysis of the deposited data

How the results depend on the processing

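No member passed 2-fold as deposited, with floors of log2 5, 7 or none, or under the other settings with 1 exception. CD83 passed it when centred on the hybridisation controls. None passed the 3-fold rule. At 1.5-fold CD83 alone passed among the 6 members above the floor, and REL, below the floor, differed by 1.55-fold. A floor of log2 7 left 2 members, RELA and CD83, and a members' median of 0.35, a feedback target median of 0.93 from CD83 alone, and a median of 0.05 over 11 other pathway and target genes. Centred on the hybridisation controls, the medians were -0.06 for the members, -0.04 for the subunits, -0.17 for the feedback targets and 0.10 for the other pathway and target genes. The other settings moved these medians by less than 0.13. For single members, 49 of 63 values under 7 alternatives moved by less than 0.13. The sign differed in 1, NFKB2 centred on the hybridisation controls (0.07). The limit of 0.13 came from probe sets above the floor, which NFKB2, RELB and REL did not reach. Some of the 63 could not move. Centring on all probe sets subtracts a median of 0, and members with 1 probe set keep it under any choice of probe set. Centring on the hybridisation controls moves every value by 0.18. The count thus partly reflects which settings were chosen. No paired analysis was possible because each group has 1 sample. Intensities below 64 are limited by background and rounding.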

Other observations

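A survival gene of the BCL2 family known as an NF-kB target, BCL2A1, read 20 on the CD2-positive array and 3 on the CD2-negative one. It was chosen after its value was seen and lies below the floor. The value of 3 is within the range of the Bacillus probe sets, and rounding alone allows a ratio between 5.57 and 8.20. Its neighbours on chromosome 15 had a median difference of 0.01. SOD2, a mitochondrial antioxidant enzyme gene and another known target, went the other way at 14 and 32 with its only probe set that carries a single symbol, among neighbours on chromosome 6 with a median of -0.03. TAP1, a peptide transporter gene of antigen presentation, read 28 and 50. CCL2, a monocyte chemokine gene, read 1009 and 645, a difference of 0.65. These 3 genes were also chosen after their values were seen, and each was measured by 1 probe set.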
